A study of Mus musculus with 5 samples.

Results

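The genes described here are 7 that mark regulatory T cells: Foxp3, Il2ra, Ikzf2, Lrrc32, Itgb8, Il10 and Izumo1r. They were taken by name from a table of unique molecular identifier (UMI) counts for 18767 genes in 10275 immune cells of the mouse thyroid, and all 7 were found. No rule on measured values chose them, but they were listed with earlier results of these data known. The cells were CD45+ live cells sorted from thyroids of NOD.WT mice, a strain prone to autoimmunity, of both sexes, which were 4 to 6 weeks old when treatment began. The checkpoint inhibitor group (ICI) came from 16 mice given anti-PD-1 (clone RPM1-14) together with anti-CTLA-4 (clone 9D9), each at 10 mg/kg per dose, 2 times a week for 4 weeks into the peritoneum. The control group came from 10 mice given isotype antibodies (clones 2A3 and MPC11) on the same schedule. After perfusion and collagenase digestion, 5′ libraries were made on the 10x Genomics droplet platform: 4 ICI libraries, named ICI 1 to ICI 4, and 1 isotype library. Thyroids were pooled, and no label says which mice went into which ICI library, so the spread between ICI libraries may be partly technical and the spread between control mice was not measured.

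Regulatory T cells restrain other lymphocytes, and their loss or failure leads to autoimmunity in many organs. Foxp3 is the transcription factor that holds their identity, and Ikzf2 encodes Helios, an Ikaros family factor common in those that arise in the thymus. Il2ra encodes CD25, the alpha chain that gives the IL-2 receptor its high affinity. Lrrc32 encodes GARP, which tethers latent TGF-beta to the cell surface, and Itgb8 encodes the beta chain of the integrin that frees it. Il10 encodes a suppressive cytokine, and Izumo1r encodes folate receptor 4, a surface protein of regulatory and resting T cells that does not carry folate. CTLA-4, the target of an antibody given here, is itself abundant on regulatory T cells.

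The libraries held between 1163 and 5018 cells and between 3858251 and 32296759 UMIs, with median depths of 1753 to 4321 UMIs per cell, so ICI 4 carried most of the precision. ICI 2 and ICI 3 shared 140 cell barcodes, 109 of them in the same cluster in both, with a median UMI ratio of 10.4 between copies, while every other pair of libraries shared 0 to 12. The libraries also stood apart by genes unrelated to the 7. The haemoglobin gene Hbb-bs had 0 UMIs in ICI 1, ICI 2 and ICI 3 but was found in 8.63% of cells of ICI 4 and 8.51% of isotype cells. Xist, the transcript of the inactive X chromosome in female cells, was in 56.9%, 22.4% and 23.0% of the cells of ICI 1, ICI 2 and ICI 3, in 0.0797% of ICI 4 cells and in no isotype cell. Eif2s3y, a gene of the Y chromosome, was in 4.53%, 17.6% and 19.4% of the cells of ICI 1, ICI 2 and ICI 3, in 42.8% of ICI 4 cells and in 37.7% of isotype cells. The libraries thus differed in their mix of female and male cells. The part of that mix in the comparisons of ICI with isotype was not tested, and Foxp3 lies on the X chromosome. ICI 4 was therefore the library most like the isotype library in these respects.

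Genome positions are from the GENCODE M21 annotation of GRCm38, the mm10 build that the submitters' processing notes name. Foxp3 lies at chrX:7573644-7595245 on the plus strand, Il2ra at chr2:11642807-11693193 (plus), Ikzf2 at chr1:69531214-69687245 (minus) and Lrrc32 at chr7:98489283-98502181 (plus). Itgb8 lies at chr12:119158022-119238802 (minus), Il10 at chr1:131019845-131024974 (plus) and Izumo1r at chr9:14885814-14903949 (minus). All are protein-coding. Of the 4577 exon bases of Foxp3, 853 (18.6%) are shared with Flicr, a noncoding gene on the same strand, and 590 with Ccdc22 on the opposite strand. Reads from the shared stretch could have been split between or withheld from these genes by the authors' counting, and the size of that effect was not tested.

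The sequences just before the RefSeq starts of Foxp3 and Il2ra are shown because these are the genes whose levels passed a test in the comparisons below. They come from RefSeq (GRCm38.p6), which gave an entry for 4 of the 7 genes. The Il2ra stretch is the 250 bases before its RefSeq start, chr2:11642542-11642791, plus strand. The Foxp3 stretch is chrX:7579426-7579566, plus strand, 141 bases that end 109 bases before its RefSeq start and lie inside a Flicr exon. That start, chrX:7579676, is inside the longer GENCODE gene given above, so the stretch is upstream of the RefSeq transcripts only. Both strands were searched for 7 short motifs: NF-kB (GGGNNTTCC), NFAT (GGAAA), STAT (TTCNNNGAA), AP-1 (TGANTCA), Runx (TGTGGT), forkhead (GTAAACA) and the TATA box (TATAAA). Capitals mark the matches.
Foxp3: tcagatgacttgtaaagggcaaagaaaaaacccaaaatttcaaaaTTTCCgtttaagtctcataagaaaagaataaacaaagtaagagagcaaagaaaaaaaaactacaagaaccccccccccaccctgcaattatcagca
Il2ra: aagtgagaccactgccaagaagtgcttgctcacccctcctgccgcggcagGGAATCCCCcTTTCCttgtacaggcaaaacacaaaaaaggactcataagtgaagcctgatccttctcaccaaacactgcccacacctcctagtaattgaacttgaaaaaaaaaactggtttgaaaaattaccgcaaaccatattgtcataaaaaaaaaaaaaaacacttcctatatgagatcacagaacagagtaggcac
In the Il2ra stretch the first capitals, 200 bases before the start, match the NF-kB letters on the minus strand, a match found in 4.98% of 32851 promoter windows of the same length. The second, 190 bases before the start, match NFAT on the minus strand, as 55.6% of windows do. The single match in the Foxp3 stretch is NFAT on the minus strand, 205 bases before the start, found in 38.2% of windows of that length. The other letters were not in these windows. These matches describe the sequence only.

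Where the 7 genes were detected was described over the 17 clusters the authors deposited. Levels (CPM) are a gene's UMIs divided by all UMIs of the cells concerned, times 1000000, summed per library, as mean ± SD over libraries with at least 20 cells of the cluster. The clusters were made from these same cells and genes, so differences between clusters carry no test. Cluster 4 held the highest mean of 6 of the 7 genes, all but Il2ra. All 8 regulatory T cell markers used for naming, among them Foxp3, Il2ra and Ikzf2, were at least 1.5-fold above the other clusters there, and 3 of them stood among its top 10 genes. It is called regulatory T-like below, with the limit that 3 of the 7 genes helped to name it.

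Foxp3 was the most restricted of the factors. In cluster 4 it stood at 354 ± 70.0 CPM (n = 5 libraries), between 244.8 and 434 in single libraries. The next was cluster 12 at 54.0 ± 48.4 (n = 3), whose highest library, 93.3, lay below the lowest of cluster 4. Below that, the ranges of neighbouring clusters overlapped. In cluster 7, named macrophage-like from 9 of 9 markers, Foxp3 was at 0.755, and 3 of its 621 cells (0.483%) carried a Foxp3 UMI, a share taken as background, whose source was not tested. Those cells had median depths of 3403 to 9932 UMIs against 1408.5 to 3523 in cluster 4. Of the 589 cells with a Foxp3 UMI in all libraries, 417 (70.8%) lay in cluster 4 and 49 (8.32%) in cluster 12, and clusters 0, 1 and 3 held 22 to 28 each. In cluster 4, 32.5%, 45.8%, 62.2% and 52.6% of cells in ICI 1 to ICI 4 and 57.1% of isotype cells had a Foxp3 UMI. After each cell was thinned to 1000 UMIs, these shares were 18.5%, 29.5%, 31.7% and 27.2% against 28.6%.

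Ikzf2 was spread much more widely than Foxp3. Its mean was 866 ± 359 in cluster 4, then 449 ± 245 in cluster 13 and 379 in cluster 15 (1 library). The thymocyte-like clusters 11 and 2 had 323 ± 200 and 317 ± 138, and cluster 12 had 282 ± 53.0. The ranges of all these neighbours overlapped, so their order does not stand beyond the spread between libraries. Its lowest mean was 24.1 in cluster 16, conventional dendritic-like.

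Il2ra had its highest levels outside the regulatory T-like cells. It stood at 553 in cluster 15 (1 library) and at 384 ± 102 in cluster 10, type 2 innate lymphoid-like cells, which also depend on IL-2 family cytokines. Cluster 4 followed with 249 ± 130, then cluster 6, gamma-delta or type 17 T-like, with 178 ± 56.4, cluster 7 with 118 ± 87.2 and cluster 12 with 105 ± 89.1. From cluster 10 downwards these neighbours overlapped. In cluster 10, 63.4%, 71.7%, 62.7% and 76.1% of cells in ICI 1 to ICI 4 and 65.0% of isotype cells had an Il2ra UMI, so detection there was at least as frequent as in cluster 4 in every library.

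The genes of TGF-beta activation differed in where they were found. Lrrc32 stood at 31.8 ± 53.6 in cluster 4, a mean carried by ICI 4, and at 12.5 ± 4.62 (n = 2) in cluster 16. Itgb8 had 2 main sites, cluster 4 with 58.6 ± 35.2 and the macrophage-like cluster 7 with 50.7 ± 49.1, followed by 9.48 ± 20.4 in cluster 2, a mean that rests on 1 UMI in the 21 cells of ICI 3 (45.9 CPM), where no other library exceeded 1.51 CPM. Il10 was sparse everywhere, at 11.9 ± 13.6 in cluster 4, 5.44 ± 7.62 in cluster 7 and 4.11 ± 8.13 in the effector T-like cluster 1, and at 0 in 10 clusters. Izumo1r had the same leading site as Foxp3 but a wider reach, with 428 ± 147 in cluster 4. The lowest library of cluster 4 (259.2) exceeded every library of cluster 12, the next by mean, but not the highest of cluster 0 (260.1). Cluster 12 followed with 159 ± 61.7, cluster 0 (CD4 T-like) with 128 ± 75.7 and cluster 2 with 116 ± 70.5. The lowest Izumo1r mean was 4.28 ± 4.91 in cluster 10, the cluster where Il2ra was high.

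**Figure D1:**
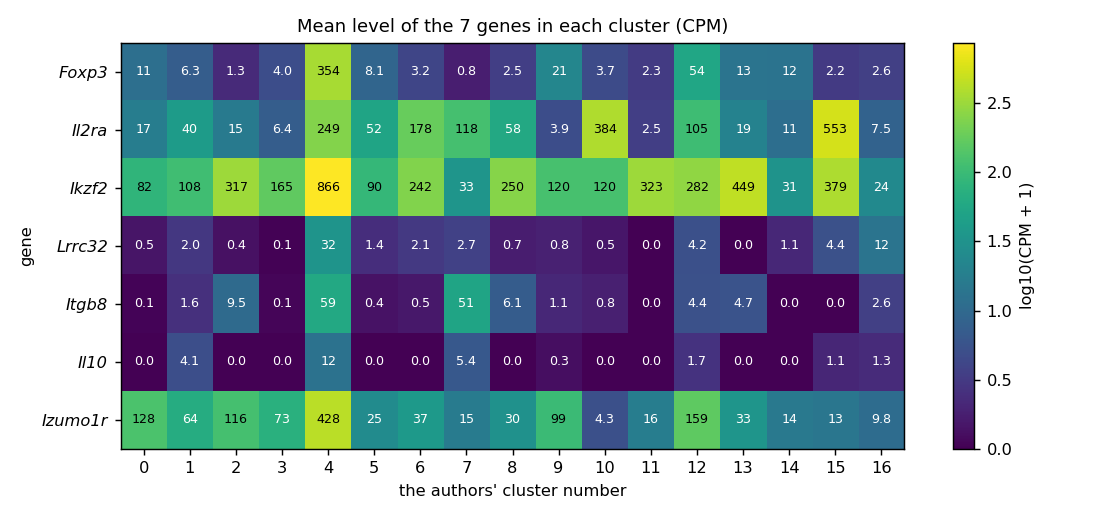
Mean level of each of the 7 genes (rows) in each of the authors' 17 clusters (columns), in CPM averaged over libraries with at least 20 cells of the cluster, with colour on a log10 scale. Cluster 4 has the highest mean of every gene except Il2ra, which is higher in clusters 15 (553) and 10 (384).

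The share of each gene's UMIs that fell in cluster 4 differed between genes and between libraries. For Foxp3 it was 70.9%, 82.2%, 89.1% and 71.9% in ICI 1 to ICI 4 and 56.7% in the isotype library. For Izumo1r it was 30.6%, 36.5%, 43.1% and 36.1% against 15.0%. For Ikzf2 it was 42.1%, 14.6%, 19.8% and 25.7% against 6.41%. Cluster 4 was 2.07% of isotype cells (28 cells). It made up 10.5%, 3.94%, 3.87% and 11.3% of the cells of ICI 1 to ICI 4, and the share of UMIs depends on that size as well as on the level per cell, so a higher share in ICI is not particular to these genes. Il2ra had 24.4%, 4.56%, 1.95% and 33.7% of its UMIs there, against 9.11%, so ICI 2 and ICI 3 lay below the control. Itgb8 split in the same way, with 48.9% and 82.6% in ICI 1 and ICI 4, 3.66% and 5.33% in ICI 2 and ICI 3, and 35.0% in the isotype library. Lrrc32 had 50.0% of 6 UMIs in ICI 1, 66.7% of 3 in ICI 3 and 79.2% of 390 in ICI 4, against 3.85% of 26. Il10 had 60.0% of 5 UMIs in ICI 3 and 57.1% of 126 in ICI 4, against 4.35% of 23.

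**Figure D2:**
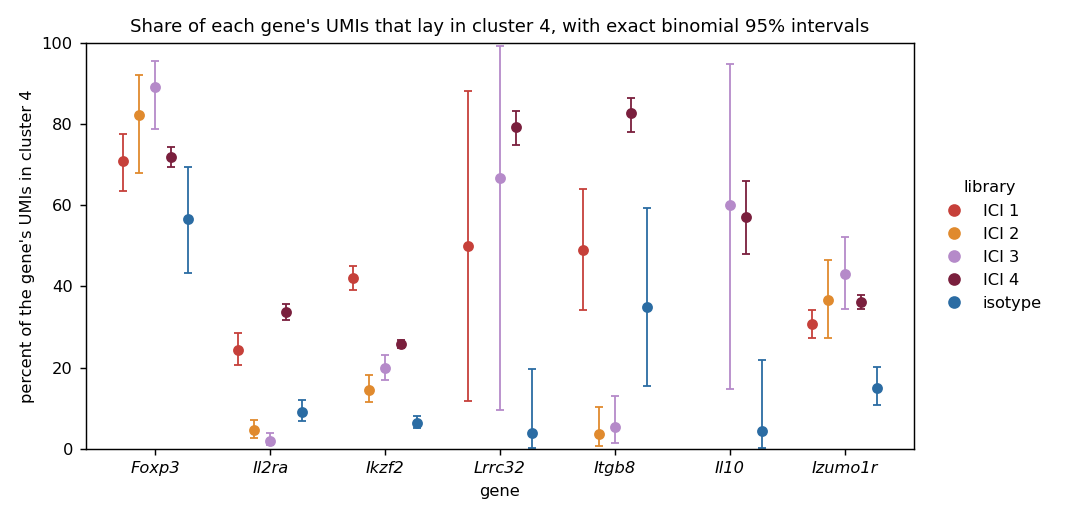
Percent of each gene's UMIs that lay in cluster 4 (y axis) for each gene (x axis) and library (colour), with exact Clopper-Pearson 95% intervals that cover counting error only. Foxp3 is above 50% in every library, while Il2ra and Itgb8 are under 6% in ICI 2 and ICI 3.

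Within cluster 4, detection of one gene went with detection of others to different degrees. Because a deep cell shows more of every gene, cells were thinned to 1000 UMIs. In the ICI libraries, 204 of the thinned cells had a Foxp3 UMI and 574 did not. Il2ra was found in 36.8% of the former (95% interval 30.1 to 43.8) and in 17.8% of the latter (14.7 to 21.1). The order held in ICI 1 (43.5% against 22.8%), ICI 2 (30.8% against 9.68%), ICI 4 (38.7% against 17.4%) and the isotype library (50.0% of 8 cells against 30.0% of 20), and was the opposite in ICI 3 (7.69% of 13 against 14.3% of 28). Izumo1r was found in 44.1% (37.2 to 51.2) against 32.2% (28.4 to 36.2). Ikzf2 was found in 53.9% against 47.9%, with overlapping intervals. Lrrc32 (10.3% against 8.71%), Itgb8 (7.84% against 10.1%) and Il10 (3.43% against 1.39%) showed smaller gaps that counting error covers. Ctla4, the antibody target, was in 57.8% against 50.5%, and Tnfrsf18, which encodes the costimulatory receptor GITR, in 64.2% against 50.7%. Cells of a library are not replicates, so these shares carry no test.

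**Figure D3:**
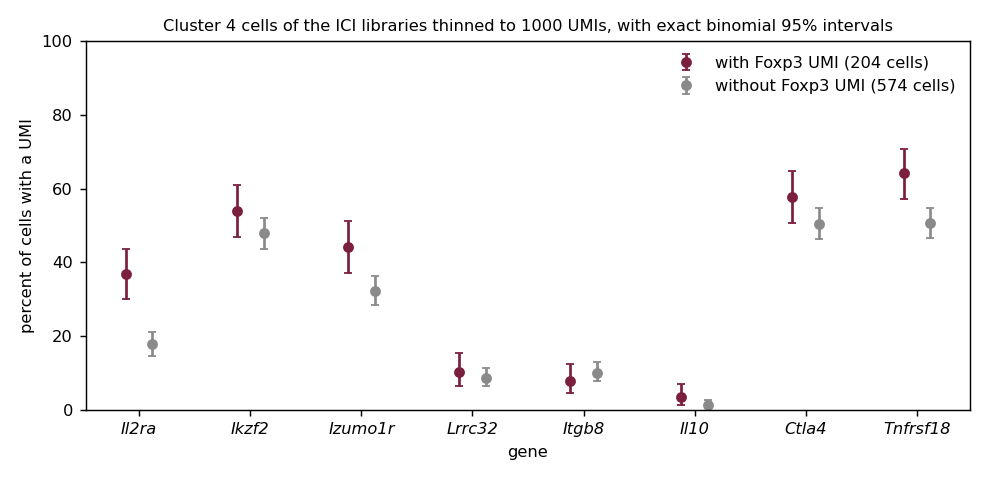
Percent of thinned cluster 4 cells from the ICI libraries with a UMI of each gene (y axis), for cells with a Foxp3 UMI (204) and without (574), with exact Clopper-Pearson 95% intervals for counting error only. The widest gap among the 7 core genes is that of Il2ra, 36.8% against 17.8%.

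Counting how many of the 7 genes a single cell showed set cluster 4 apart by a wide margin in every library. Thinned to 1000 UMIs, 50.0%, 29.5%, 53.7% and 48.7% of cluster 4 cells in ICI 1 to ICI 4 and 46.4% of isotype cells had 2 or more of the genes. In cluster 12 the shares were 16.7% in ICI 1, 9.30% in ICI 4 and 2.27% in the isotype library. At full depth, 33.1%, 31.2%, 42.2%, 68.2% and 53.6% of cluster 4 cells in the 5 libraries had 3 or more, and a cell in ICI 4 showed all 7. These cells were grouped using such genes, so the contrast is a description of the cluster.

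The first question of the study's design is whether the genes differed between ICI and isotype mice over all thyroid CD45+ cells. Counts were summed per library and compared with edgeR's quasi-likelihood test, with Benjamini-Hochberg adjustment over all genes tested. A sum over all cells cannot tell more cells of a type from more RNA per cell. None of the 7 genes passed an adjusted p of 0.05, and neither did any of the 12659 genes tested (background 0%). At an unadjusted p under 0.05 there were 516 genes (4.08%), of which Itgb8 was the sole core gene. DESeq2 called 33 genes (0.263%) and none of the 7.

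Foxp3 stood at 38.8, 11.7, 14.6 and 39.1 CPM in ICI 1 to ICI 4 (172, 45, 64 and 1263 UMIs) and at 7.38 in the isotype library (60 UMIs). All 4 ICI libraries were above the control, and they formed a high pair (ICI 1 and ICI 4) and a low pair. The ICI mean was 26.1 ± 15.0, and the log2 fold change was 1.73 (SE 0.90), adjusted p = 0.817 by edgeR. The share of cells with a Foxp3 UMI was 4.79%, 2.38%, 2.67% and 8.45% against 2.37%, so ICI 2 was level with the control by this measure. Over the 4 ICI libraries and 1 isotype library, an exact 2-sided permutation test can give no p below 0.2. For Foxp3 this exact permutation test gave p = 0.4, and for the 14 shares tested (7 genes in 2 sets of cells) every adjusted p was 1.

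Itgb8 had the largest relative difference of the 7. It stood at 10.6, 21.3, 17.1 and 10.3 CPM in ICI 1 to ICI 4 and 2.46 in the isotype library (20 UMIs), so the groups did not overlap. The ICI mean was 14.8 ± 5.32, with a log2 fold change of 2.47 (SE 0.62) by edgeR, adjusted p = 0.817, and the adjusted p ranged from 0.0884 to 1 over the other settings. Il2ra stood at 104.7, 102.4, 93.6 and 73.6 against 63.5, again above the control in every ICI library, with a log2 fold change of 0.45 (SE 0.26). These 3 genes, Foxp3, Itgb8 and Il2ra, were 3 of 7 with every ICI library above the control, where 27.3% of all genes tested had that pattern. For Il2ra the difference between ICI 4 and the control was 0.23 on the log2 scale.

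The remaining genes overlapped between groups. Ikzf2 was at 244, 114, 154 and 223 CPM against 146, with ICI 2 below the control. Izumo1r was at 155, 27.0, 29.7 and 94.3 against 29.5, the same high and low pairs as Foxp3. Its log2 fold change was 1.26 (SE 1.11), and that of Ikzf2 was 0.24 (SE 0.49). Lrrc32 was at 1.35, 0, 0.685 and 12.1 against 3.20, so its estimate of 0.21 (SE 2.17) rested on ICI 4 and was -2.30 without that library. Il10 had 0 UMIs in ICI 1 and ICI 2, 5 in ICI 3, 126 in ICI 4 and 23 in the isotype library, or 1.14, 3.90 and 2.83 CPM in the last 3. Its log2 fold change was -1.04 (SE 2.05, adjusted p = 0.883 by edgeR), and it was 0.95 with cells of mixed transcripts removed.

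Markers of other cells moved between libraries too. The summed level of 12 myeloid genes was 10141, 16837, 14311 and 1860 CPM in ICI 1 to ICI 4 and 10279 in the isotype library. That of 9 thyroid and parathyroid epithelial genes was 25.1 to 133 in the ICI libraries and 1063 in the isotype library, and 15 stress genes of dissociation summed to 3970 to 5899 against 7881. ICI 2 and ICI 3, where Itgb8 was highest, had the largest myeloid sums. The part of these cells in the differences above was not tested.

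**Figure D4:**
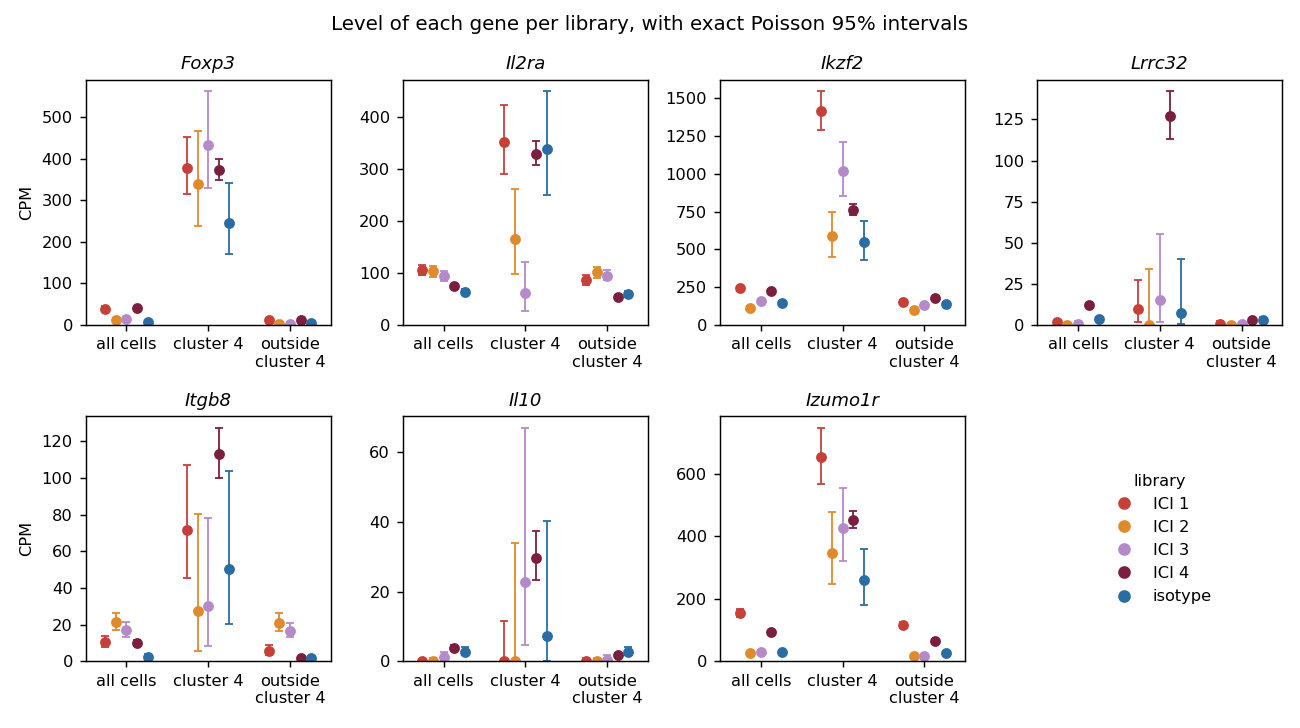
Level of each gene (1 panel each, y axis in CPM on its own scale) in all cells, in cluster 4 and outside cluster 4, for the 5 libraries, with exact Poisson 95% intervals for counting error. Lrrc32 in cluster 4 is high in ICI 4 alone (127), and Itgb8 outside cluster 4 is high in ICI 2 and ICI 3.

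The same comparison within cluster 4 asks whether regulatory T-like cells themselves carried more or less of each gene. None of the 6 genes tested was called, beside 6 of 4160 genes in all (0.144%), every one of them lower in ICI. DESeq2 called 8 genes (0.0563%) there and none of the 7, and 219 genes (5.26%) had an unadjusted p under 0.05 by edgeR, again none of the 7. Il10 did not pass the filter on low counts. Lrrc32 and Itgb8, with 1 and 7 isotype UMIs, passed it through the ICI libraries alone. The isotype library contributed 28 cells, which limits every estimate.

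Foxp3 stood at 379, 339, 434 and 374 CPM in ICI 1 to ICI 4 and 245 in the isotype library (34 UMIs). The ICI libraries lay close together, all above the control, with an ICI mean of 382 ± 39.4, a log2 fold change of 0.48 (SE 0.48) and an adjusted p of 0.851 by edgeR. Izumo1r was also above the control in every ICI library, with 652, 348, 427 and 453 against 259 (log2 fold change 0.70, SE 0.52). Ikzf2 stood at 1414, 587, 1021 and 762 against 547 (0.61, SE 0.55). So 3 of the 6 genes tested were above the control in every ICI library by level, as were 32.1% of all genes tested in this cluster. The share of cells with a UMI did not follow for all 3. Its ICI mean was 48.3% against 57.1% for Foxp3, 51.8% against 60.7% for Izumo1r and 73.8% against 71.4% for Ikzf2. After thinning these were 26.8% against 28.6%, 32.1% against 35.7% and 50.6% against 39.3%.

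Il2ra separated the ICI libraries instead. In cluster 4 it was at 351, 165, 61.0 and 329 CPM in ICI 1 to ICI 4 and 338 in the isotype library. ICI 1, ICI 4 and the control were level, and ICI 2 and ICI 3, with 18 and 8 UMIs, were lower. The log2 fold change was -0.67 (SE 0.72), adjusted p = 0.861 by edgeR, and the value for ICI 4 beside the control was 0.03. The share of cells with an Il2ra UMI was 31.2%, 22.9%, 13.3% and 48.3% against 53.6%, and 26.6%, 15.9%, 12.2% and 23.2% against 35.7% after thinning. By that measure every ICI library lay below the control, in an exact permutation test with p = 0.4.

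Lrrc32 in cluster 4 was almost entirely a feature of ICI 4: 309 UMIs in 173 of 569 cells (30.4%), or 127 CPM. The other libraries had 3, 0 and 2 UMIs in ICI 1 to ICI 3 and 1 in the isotype library, or 9.32, 0, 15.2 and 7.20 CPM. ICI 4 did not overlap with the rest. After thinning, 12.3% of ICI 4 cells kept a Lrrc32 UMI, against 0.806%, 0% and 0% in ICI 1 to ICI 3 and 3.57% (1 of 28 cells) in the isotype library. The log2 fold change was 2.72 (SE 2.30), adjusted p = 0.839 by edgeR. Itgb8 was at 71.5, 27.5, 30.5 and 113 against 50.4 (log2 fold change 0.38, SE 0.89), and Il10 at 0, 0, 22.9 and 29.6 against 7.20, where the ICI 3 and isotype values are 3 and 1 UMIs.

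Genes that work with the 7 were taken from lists around them, and no gene of the 8 pathway lists was called in cluster 4. In IL-2 receptor signalling, 0 of 12 tested genes were called, with a median log2 fold change of -0.10 beside 0.09 for all genes. Il2rb, the receptor's beta chain, was at 522 ± 27.3 against 331 (n = 4 and 1), Il2rg, its shared gamma chain, at 799 ± 106 against 713, Jak1, a kinase bound to that receptor, at 440 ± 63.1 against 468, and Socs1, a feedback inhibitor, at 211 ± 185 against 418. Il2 itself was at 13.6 ± 7.12 against 0 UMIs, which allows up to 21.6, so no difference was detectable at this depth. In TGF-beta activation and signalling, 0 of 9 were called (median 0.39). Tgfb1, the ligand, was at 290 ± 85.6 against 302, Itgav, the alpha chain that pairs with the product of Itgb8, at 137 ± 24.6 against 122, the receptor gene Tgfbr2 at 232 ± 112 against 93.6 and Skil, a repressor of the pathway, at 285 ± 71.8 against 194.

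The Ikaros family gave 0 calls of 4 tested in cluster 4, with a median log2 fold change of 0.90. Ikzf1, the founding member, was at 220 ± 77.9 against 57.6, above the control in all 4 ICI libraries, with a log2 fold change of 1.74 (SE 0.64) and an adjusted p of 0.831 by edgeR. Ikzf4, which encodes the Foxp3 partner Eos, was at 104 ± 41.6 against 43.2, and Ikzf3 at 285 ± 109 against 238. In IL-10 signalling and its regulators, 0 of 9 were called (median -0.16), with the receptor gene Il10ra at 70.3 ± 31.5 against 21.6. Stat3, which relays the receptor's signal, was at 279 ± 138 against 432, its inhibitor gene Socs3 at 171 ± 200 against 569, and Maf, a factor that drives Il10, at 301 ± 204 against 115. Among Foxp3 partners and upstream factors, 0 of 22 were called (median 0.27), with Ets1 at 897 ± 207 against 641, Batf at 216 ± 165 against 670 and Rel at 220 ± 134 against 302. None of these differences passed the test.

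Other regulatory T cell surface genes, 18 tested and 0 called in cluster 4, had a median of 0.39. Ctla4 was at 855 ± 309 against 1087, Tnfrsf4, which encodes OX40, at 890 ± 603 against 1793, Icos at 970 ± 208 against 1130 and Tnfrsf18 at 641 ± 216 against 691. Tissue regulatory T cell genes, 11 tested and 0 called, had a median of -0.02, with the chemokine receptor gene Cxcr3 at 390 ± 258 against 86.4, Rora at 299 ± 87.9 against 338, Id2 at 232 ± 166 against 151 and Ccr8 at 182 ± 88.6 against 101. Of the folate receptor family only Izumo1r was measurable there. The marker lists of other cells did hold calls: 3 of 3 tested thyroid and parathyroid epithelial genes fell (Tg, Krt8 and Krt18), 2 of 15 stress genes fell (Atf3 and Klf4) and 1 of 6 thymocyte genes fell (Cd24a). These 6 were all the genes called in the cluster, with adjusted p from 0.00018 (Atf3, 2.11 ± 2.61 CPM against 576) to 0.036 (Cd24a, 14.4 ± 9.64 against 259) by edgeR. Tg, the thyroglobulin gene, was at 16.6 ± 15.1 against 360.0. The 9 epithelial genes of the list summed to 38.1 to 91.7 CPM in the ICI libraries and 1109 in the isotype library, and the 15 stress genes to 2551 to 7020 against 12025. None of 11 proliferation genes and neither of the myeloid and B cell genes that could be tested (1 each) was called. All 11 proliferation genes had negative log2 fold changes, with a median of -1.79. In 10 of them every ICI library was below the control, as in 18.1% of all genes tested there. The 15 proliferation genes summed to 829.5 to 990.4 CPM in the ICI libraries and 2131 in the isotype library. The part of this RNA in the cluster 4 values was not tested.

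Over all cells none of these lists held a call. The median log2 fold change was 0.24 for IL-2 receptor signalling (14 genes tested), 0.27 for TGF-beta activation and signalling (16), 0.40 for IL-10 signalling (12), 0.24 for the Ikaros family (5) and 0.10 for Foxp3 partners (26), beside 0.02 for all genes tested. It was 0.57 for other regulatory T cell genes (19), 0.55 for tissue regulatory T cell genes (14) and -1.83 for the 2 measurable folate receptor genes. The latter was set by Folr2, a folate receptor gene of macrophages, at 0.887 ± 1.05 CPM in ICI against 28.4 (log2 fold change -4.92, SE 1.28, adjusted p = 0.817 by edgeR). The lists of other cells had medians of 0.13 (myeloid), 0.58 (B cell), -4.34 (epithelium), -1.57 (thymocyte), -1.03 (stress) and -0.88 (proliferation). These lists were drawn up with earlier results of these libraries known.

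Outside cluster 4, where 12559 genes were tested and none called (0%), none of the 7 genes was called either. DESeq2 called 27 genes (0.204%) and none of the 7, and 459 genes (3.65%) had an unadjusted p under 0.05 by edgeR, none of them a core gene. Itgb8 was the 1 gene of the 7 with every ICI library above the control there, at 5.84, 21.1, 16.7 and 1.94 CPM against 1.63, a pattern that 26.1% of all genes tested showed. ICI 4 lay next to the control, with a log2 difference of 0.26, while the estimate over all 4 ICI libraries was 2.67 (SE 1.51, adjusted p = 0.835 by edgeR). Lrrc32 (0.730, 0, 0.235 and 2.71 against 3.13) and Il10 (0, 0, 0.471 and 1.81 against 2.75) lay below the control in every ICI library, as did 18.6% of all genes tested. Foxp3 was at 12.2, 2.13, 1.65 and 11.9 against 3.25, so the pair of ICI 1 and ICI 4 lay above the control and the other pair below. Izumo1r split in the same way, with 116, 17.6, 17.4 and 65.2 against 25.5.

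Cluster 12 was the one place where core genes passed the test. It is a cluster of dividing cells: all 10 cycling markers were at least 1.5-fold above the other clusters, and Nrgn, Tnfrsf9 and Tk1 led its genes. Dividing is a state that several cell types can share, so the cluster is referred to by its number. Of the 8 regulatory T cell markers, 2 were at least 1.5-fold above the other clusters and Tnfrsf4 was among its top 10 genes. It held 30, 8, 14 and 215 cells in ICI 1 to ICI 4 and 44 in the isotype library. ICI 2 and ICI 3 had too few cells for the fit, so it compared ICI 1 and ICI 4 with the isotype library and rests on the spread between 2 ICI libraries, with the isotype library assumed to vary as they do. Of the 4 genes tested, Foxp3 and Il2ra rose in ICI, beside 30 of 6932 genes called in all (0.433%), 13 of them higher (0.188%) and 17 lower (0.245%). DESeq2 called 4 genes (0.028%) and neither of these, and 206 genes (2.97%) had an unadjusted p under 0.05 by edgeR.

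Foxp3 had 20 UMIs in ICI 1 and 187 in ICI 4, or 93.3 and 68.8 CPM, and 0 in ICI 2, ICI 3 and the isotype library. The 8 and 14 cells of ICI 2 and ICI 3 allow up to 105.5 and 35.0 CPM. With 3 counts taken as the limit that 0 UMIs allows in the isotype library (6.78 CPM), Foxp3 was at least 13.8-fold higher in ICI 1 and at least 10.2-fold higher in ICI 4. The adjusted p was 0.000338 by edgeR. With 0 isotype UMIs, Foxp3 passed the filter on low counts through the ICI libraries alone, so its place among the genes tested already reflects a high ICI level and the count of 2 of 4 genes supports nothing further. With every gene that had a count tested, its adjusted p was 1.95e-05 by edgeR. It ranged from 9.86e-06 to 0.846 over the other settings, and the call was lost with DESeq2 (0.846) and with ICI 1 to ICI 3 summed as 1 library (0.211). A UMI of Foxp3 was found in 6 of 30 cells of ICI 1 and in 43 of 215 cells of ICI 4. The share was the same in each. It was found in 0 of 44 isotype cells, where the limit of 3 counts allows 6.82% and the exact interval 8.04%. After thinning it was found in 3 of 30 (10.0%), 15 of 215 (6.98%) and 0 of 44 cells. The same limits hold for these 44 cells, and the thinned share of ICI 4 lies between them. At that depth a difference between ICI 4 and isotype was thus not detectable by the exact interval. Median depths were 5890.5, 10557 and 8930 UMIs, with the isotype cells between ICI 1 and ICI 4.

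Il2ra in cluster 12 had 42, 1, 6 and 271 UMIs in ICI 1 to ICI 4 and 8 in the isotype library, or 196, 35.2, 70.1 and 99.7 against 18.1 CPM. Every ICI library was above the control, as were both fitted ones for 32.6% of all genes tested, and ICI 2 was so by 1 UMI in 8 cells. Its 8 isotype UMIs are under the minimum count of 10, so Il2ra too passed the filter on low counts through the ICI libraries alone. Its place among the genes tested therefore already reflects a high ICI level. The log2 fold change was 2.98 (SE 0.74), adjusted p = 0.0469 by edgeR, close to the threshold, and it ranged from 0.0086 to 1 over the other settings. The call was lost with DESeq2 (1), with ICI 1 to ICI 3 summed (0.999), when the low copies of shared barcodes were removed (0.104) and when cells with both T cell and myeloid or B cell transcripts were removed (0.118). The log2 fold change itself lay between 2.43 and 3.23 in the 10 other settings. A single cell held 31.0% of the Il2ra UMIs of ICI 1, 14.4% of those of ICI 4 and 37.5% of those of the isotype library. ICI 4 beside the control gave a log2 difference of 2.43. Leaving out ICI 1 or ICI 4 leaves 1 library on each side and no test.

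The other core genes of cluster 12 did not pass. Ikzf2 was at 266, 35.2, 105 and 239 CPM in ICI 1 to ICI 4 against 341 (log2 fold change -0.43), below the control in every ICI library. In the 2 ICI libraries fitted, 34.4% of all genes tested were below it in both. Izumo1r was at 229, 35.2, 23.4 and 138 against 111 (0.71). Lrrc32, Itgb8 and Il10 had 28, 23 and 14 UMIs in ICI 4 and at most 1 in any other library. Among partner genes, Ctla4 was at 178 ± 126 (n = 2) against 27.1, with a log2 fold change of 2.78 (SE 0.73) and an adjusted p of 0.0725 by edgeR. Ikzf4 was at 40.6 ± 15.2 against 6.78 (2.43, SE 0.98, adjusted p = 1 by edgeR), and Itgav at 63.5 ± 29.0 against 18.1 (1.68, SE 0.71, adjusted p = 1 by edgeR).

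In cluster 12, several other core genes were found more often in cells with a Foxp3 UMI than in those without. In the ICI libraries, Il2ra was found in 40 of these 49 cells (81.6%) and in 27 of the 218 without a Foxp3 UMI (12.4%). Ikzf2 was found in 95.9% against 41.3%, Izumo1r in 77.6% against 39.4%, Lrrc32 in 32.7% against 1.83% and Ctla4 in 87.8% against 26.6%. Most cells with Foxp3 had no UMI of Lrrc32, Itgb8 (16.3% against 1.38%) or Il10 (6.12% against 0%). Median depth was 12212 UMIs in the cells with Foxp3 and 9081.5 in those without. After thinning, 18 cells kept a Foxp3 UMI, and Il2ra was found in 22.2% of them (95% interval 6.41 to 47.6) against 6.50% of 246 (3.76 to 10.3). For Ikzf2 the thinned shares were 61.1% (35.8 to 82.7) against 15.4% (11.2 to 20.6). Of the 18 cells, 3 came from ICI 1 and 15 from ICI 4, while ICI 2 and ICI 3 gave only cells without a Foxp3 UMI. The intervals cover counting error only. Cells of a library are not replicates, so these shares carry no test.

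Other genes moved with these results in cluster 12. In the isotype library the 12 myeloid genes summed to 2211 CPM, with C1qc and Adgre1 at 0, against 70.0 in ICI 1 and 125 in ICI 4. The 9 epithelial genes summed to 2467 against 14.0 and 24.3, and of these Pth, the parathyroid hormone gene, was at 2379 against 2.21 ± 3.12 (n = 2). Myeloid genes were called lower in 5 of 5 tested and epithelial genes in 2 of 2. The 15 proliferation genes summed to 8156 in the isotype library, 3710 in ICI 1 and 8409 in ICI 4. Of the other lists, IL-2 receptor signalling held 1 call of 12 (Il2ra, median 0.46) and Foxp3 partners 1 of 26 (Foxp3, median -0.06). The TGF-beta (11 tested, median -0.08), IL-10 (8, 0.20), Ikaros (4, -0.20), other regulatory T cell (16, 0.97) and tissue regulatory T cell (10, 0.74) lists held none, nor did the folate receptor, B cell, thymocyte, stress and proliferation lists. The part of myeloid and epithelial RNA in the Foxp3 and Il2ra calls was not tested. With cells of mixed transcripts removed, the Il2ra log2 fold change was 2.70 and was no longer called, and Foxp3 stayed called.

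The macrophage-like cluster 7 was the second site of Itgb8 and also held Il2ra. Its cell numbers were 104, 181, 162 and 45 in ICI 1 to ICI 4 and 129 in the isotype library. Itgb8 stood at 37.7, 108, 96.6 and 5.95 CPM (20, 77, 68 and 3 UMIs) against 5.04 (8 UMIs). Il2ra stood at 102, 224, 192 and 41.7 (54, 160, 135 and 21 UMIs) against 30.8 (49 UMIs). These 2 of 5 core genes tested lay above the control in every ICI library, as did 19.6% of all genes tested, and Ikzf2 lay below it in every one, as did 23.6%. In both genes ICI 1, ICI 2 and ICI 3 were high and ICI 4 lay beside the control, with log2 differences of 0.18 for Itgb8 and 0.41 for Il2ra.

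Neither gene was called in cluster 7. For Itgb8 the log2 fold change was 3.61 (SE 1.46), adjusted p = 0.581, and for Il2ra 2.18 (SE 0.94), adjusted p = 0.59, both by edgeR. None of the 5 core genes tested was called, nor any of 8997 genes (0%). An unadjusted p under 0.05 by edgeR was reached by 766 genes (8.51%), with Itgb8 the sole core gene. DESeq2 called 25 of the 3091 genes to which it gave an adjusted p (0.809%). Without ICI 4, both were called, with adjusted p = 0.0289 for Itgb8 and 0.0406 for Il2ra, but so were 647 of all genes tested in that setting, and the 3 libraries left include the pair that shares barcodes. With so many other genes called, those calls are not particular to Itgb8 and Il2ra. Itgb8, with 8 isotype UMIs, also passed the filter on low counts through ICI 1, ICI 2 and ICI 3 alone. Its place among the genes tested thus already reflects high levels in those libraries. With cells of mixed transcripts removed, the estimates were 1.82 for Itgb8 and 0.58 for Il2ra. Ikzf2 was at 20.7, 9.80, 25.6 and 49.6 against 59.8 (log2 fold change -1.19), Izumo1r had an estimate of 0.45 (SE 1.77) and Il10 one of -1.61 (SE 1.86). Il10ra, the IL-10 receptor gene, was at 367 ± 173 against 97.6 (1.91, SE 0.79, adjusted p = 0.586 by edgeR), above the control in all 4 ICI libraries. The myeloid genes summed to 66397, 86355, 83778 and 35992 against 39251, so they were high and low in the same libraries as Itgb8 and Il2ra, and their part in these values was not tested. No list held a call in cluster 7.

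**Figure D5:**
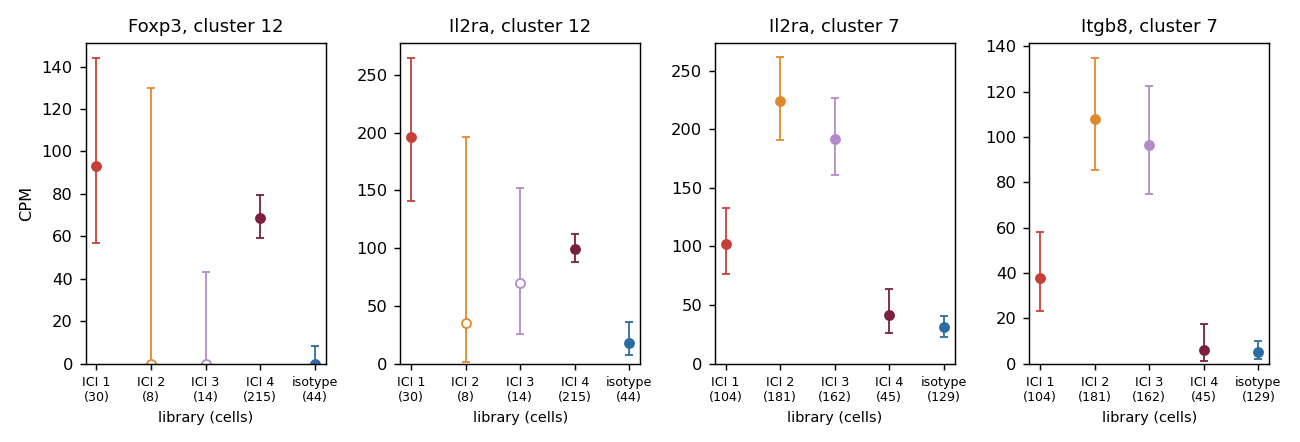
Levels of Foxp3 and Il2ra in cluster 12 and of Il2ra and Itgb8 in cluster 7 (y axis, CPM) in each library, with the number of cells under its name and exact Poisson 95% intervals for counting error; open points are libraries with under 20 cells. In cluster 12 the isotype library is the lowest of the 3 fitted, and in cluster 7 ICI 4 lies beside the isotype library.

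In the other 9 clusters with enough cells for a fit (0, 1, 2, 3, 5, 6, 8, 10 and 11) no core gene was called. The number that could be tested ran from 1 to 5 of the 7, and the share of all genes called was 0% in clusters 0, 3, 6, 8 and 10, 0.0107% in cluster 1, 0.0316% in cluster 5, 0.0341% in cluster 2 and 0.14% in cluster 11. Nor did any core gene reach an unadjusted p under 0.05 by edgeR, as 3.75%, 6.05%, 1.83%, 3.06%, 0.927%, 7.25%, 2.36%, 2.89% and 2.09% of all genes did in clusters 0, 1, 2, 3, 5, 6, 8, 10 and 11. Clusters 9, 13, 14, 15 and 16 had too few cells. In cluster 1, Foxp3 was at 1.34, 3.07, 0.984 and 26.0 CPM in ICI 1 to ICI 4 (1, 3, 1 and 42 UMIs). The 0 UMIs of its 45 isotype cells allow up to 16.1 CPM, so ICI 4 alone exceeded that limit. Its adjusted p was 0.888 by edgeR, and 37.0% of all genes tested in cluster 1 were above the control in every ICI library. In the type 2 innate lymphoid-like cluster 10, Il2ra stood at 296, 338, 309 and 536 CPM in ICI 1 to ICI 4 against 441, with ICI 4 alone above the control. In cluster 6 (gamma-delta or type 17 T-like) it stood at 132, 132, 151 and 252 against 225, again with ICI 4 alone above. In cluster 6, Ikzf2 stood at 315, 298, 310 and 147 against 143.5, above the control in every ICI library (as 29.7% of all genes there) though level with it in ICI 4 (log2 fold change 0.69, SE 0.44, adjusted p = 0.693 by edgeR). Izumo1r in the CD4 T-like cluster 0 averaged 140 ± 81.1 against 77.0, also above in all 4, as were 26.3% of all genes there (0.81, SE 0.70, adjusted p = 0.864 by edgeR). All these comparisons share the single isotype library, so their directions are not independent of each other.

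Genes whose pattern over the 17 clusters was most like that of each core gene were ranked by Pearson's r of log2(mean CPM + 10) among 9936 genes with at least 200 UMIs. The points are clusters of the same libraries and carry no test. For Foxp3 they were Flicr (r = 0.922), Ccn4 (0.921) and Nrn1 (0.904), each highest in cluster 4. Flicr, which overlaps Foxp3, had 15, 0, 7 and 222 UMIs in cluster 4 of ICI 1 to ICI 4 and 1 in the isotype library. For Izumo1r they were Ccng1 (0.897), Tnfsf8 (0.897) and Gpr83 (0.888), and for Lrrc32 they were Dusp14 (0.869), Flicr (0.867) and Ccn4 (0.816). For Ikzf2 they were Ahi1 (0.868), Aldh18a1 (0.845) and Galnt2 (0.845). Il2ra was most like Fam110a (0.858), Ergic1 (0.809) and St6galnac6 (0.797). Itgb8 was most like Gbp2b (0.908), Rin2 (0.846) and Gbp3 (0.798), and Il10 most like Matk (0.865), Gbp2b (0.860) and Tmem8 (0.844).

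Among the 7 genes themselves, the patterns of Itgb8 and Il10 were closest (r = 0.827 over 17 clusters), followed by Lrrc32 and Il10 (0.799), Foxp3 and Izumo1r (0.731) and Foxp3 and Lrrc32 (0.715). Il2ra stood apart, with r = 0.214 to Foxp3 and -0.065 to Izumo1r. Several of these values rest on cluster 4 and on sparse counts, 154 UMIs in all for Il10 and 425 for Lrrc32.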

How the data were processed

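Single-cell 5′ RNA-seq libraries of CD45+ thyroid cells were compared, 4 from ICI mice and 1 from isotype mice. The authors deposited a table of UMI counts per gene and cell, not normalized, with a table of cells that gives the library, the cluster number, the UMI count and the percent of mitochondrial counts. Cell Ranger, Seurat and mm10 are named, per the submitters' processing notes, and versions, cell filters and annotation are not given in the sources used here. No cell was removed and no doublet caller was run. Removing cells with both T cell and myeloid or B cell transcripts was an alternative. The highest mitochondrial percent in any library was 25.0. For ICI 1 to ICI 4 and isotype the labels state 1688, 1234, 1178, 5018 and 1352 cells, and the deposited table held 1523, 1219, 1163, 5018 and 1352.

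Counts were summed per library and set of cells, where at least 20 cells were present, and tested with edgeR 4.0.16 (R 4.3.3, limma 3.58.1): TMM scaling, filterByExpr with a minimum count of 10, quasi-likelihood test, Benjamini-Hochberg over all genes tested, threshold 0.05. With 1 isotype library, its spread is taken to equal that among ICI libraries. The filter asks for the minimum count in 1 library, so a gene low in isotype can pass through the ICI libraries alone. Alternatives were DESeq2 1.42.0, RLE scaling, all genes with a count kept, omission of each ICI library in turn, ICI 1 to ICI 3 as one sum, ICI 4 beside isotype only, low copies of shared barcodes removed, mixed cells removed, each gene's highest cell removed and clusters 2, 5 and 11 left out. For clusters 12 and 7 these were chosen after seeing the data. Shares of cells were compared by exact 2-sided permutation over libraries, and also at 1000 UMIs a cell (8327 of 8923 ICI cells and 1331 of 1352 isotype cells kept). Intervals are 95% Clopper-Pearson for shares and exact Poisson for levels, and cover counting error only. What 0 UMIs allow is given for 3 counts, a tighter limit than the upper end of those intervals. Python 3.11.15, numpy 2.4.6 and scipy 1.17.1 were used.

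On simulated counts for 12659 genes with the library sizes of all cells, the test recovered 86% of 16-fold and 5% of 4-fold changes, with 4 false among 95 calls. For cluster 4 (4160 genes) it recovered 90% and 20%, with 7 false among 117. The changes were planted only in the most abundant genes, with the spread typical of a gene's abundance. The rates therefore do not cover sparser genes, and smaller changes would mostly be missed.

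The 7 genes and all lists were chosen with earlier results of these data known. Genes named were the 7, their partners whatever the result, up to 4 genes of a list (those called, otherwise the most abundant) and the 3 genes most alike over clusters.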

Additional observations from a re-analysis of the deposited data

Results flagged for a closer look

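In 5 of 42 groups of ICI libraries checked, 1 library stood far from the other 3, and all 5 were Lrrc32 in ICI 4. Its level there was 12.1 CPM in all cells, where the nearest ICI library had 1.35, and 127 in cluster 4, where the nearest had 15.2. The share of cells with a Lrrc32 UMI in ICI 4 was 4.50% in all cells, 30.4% in cluster 4 and 1.19% outside it. For independent, normally distributed values such a gap arises by chance in about 1 group in 20. These groups are levels and shares of the same counts in overlapping sets of cells, many of them sparse. The 5 flags are thus not independent, and that rate cannot be set against them. ICI 4 was also the library with the most UMIs per cell, a median of 4321, and the share in cluster 4 after thinning to 1000 UMIs was 12.3% in ICI 4 against 0% to 0.806% in the other ICI libraries.

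Ikzf2 was above the isotype library in every ICI library within cluster 4 and below it in every fitted ICI library within 4 other clusters. The isotype level was 547 CPM in cluster 4, against 341.1 in cluster 12, 59.80 in cluster 7, 112.3 in cluster 0 and 337.6 in cluster 3, while the ICI means were 946 in cluster 4 and 252, 26.4, 74.5 and 122 in the others. Of all genes tested, 32.1% were above the isotype library in every ICI library in cluster 4, and 34.4%, 23.6%, 20.8% and 19.3% were below it in clusters 12, 7, 0 and 3. The difference between these clusters was not tested, none of the 5 comparisons passed its own test, and all share the same isotype library. Cluster 4 was not alone in its direction. In cluster 6, Ikzf2 was also above the isotype library in every ICI library (as 29.7% of all genes there), though level with it in ICI 4.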

How the results depend on the processing

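The number of the 7 genes called kept its side in 47 of 52 recomputations. In cluster 12 it was 2, and it was 0 with DESeq2 and with ICI 1 to ICI 3 summed, and 1 with mixed cells removed or low copies of shared barcodes removed. In cluster 7 it was 0, and 2 without ICI 4. The number of all genes called moved more. Over all cells it was 0, 33 with DESeq2 and 210 without ICI 4. In cluster 4 it was 6, 80 with no filter, 40 with ICI 1 to ICI 3 summed and 16, 16 and 68 without ICI 2, ICI 3 and ICI 4. Outside cluster 4 it was 0, 27 with DESeq2 and 234 without ICI 4. In cluster 12 it was 30, 4 with DESeq2, 3 with ICI 1 to ICI 3 summed, 12 with mixed cells removed and 20 with low copies removed, and in cluster 7 it was 0 and 647 without ICI 4. Of 335 recomputed log2 fold changes, 310 kept direction and side or, where no adjusted p was given, direction and a place within the SE. A further 6 lost a call, 2 gained one and 7 with no adjusted p moved by more than the SE. The last 10 reversed, none of a called gene. With ICI 4 beside isotype only these were Il10 at 0.46 in all cells and 0.43 in cluster 7, Il2ra at 0.03 in cluster 4 and -0.14 outside it, and Ikzf2 at 0.38 outside it. Ikzf2 outside cluster 4 was also 0.10 with ICI 1 to ICI 3 summed and ran from -0.26 (without ICI 4) to 0.07 (without ICI 2) with 1 ICI library left out. Il10 in all cells was 0.95 with mixed cells removed. With 1 ICI library left out, Lrrc32 in all cells ran from -2.30 (without ICI 4) to 0.60 and Izumo1r in cluster 7 from -0.55 (without ICI 4) to 0.91. The cause of these changes was not tested.

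Differences in the share of cells, ICI minus isotype in percentage points, reversed in 17 of 84 recomputations. In all cells, thinning to 1000 UMIs gave 0.885 for Ikzf2, 0.0410 for Lrrc32 and 0.0898 for Il10, and counting cells with 2 UMIs or more gave -0.052 for Il2ra and 0.293 for Lrrc32. In cluster 4, thinning gave -0.294 for Lrrc32, 2.82 for Itgb8 and 1.79 for Il10, and 2 UMIs or more gave -0.16 for Ikzf2 and 0.703 for Il10. Leaving out each ICI library gave -1.36 to 0.144 for Lrrc32 in all cells and, in cluster 4, -0.18 to 6.86 for Ikzf2, -1.47 to 8.67 for Lrrc32 and -1.87 to 0.350 for Il10. No paired analysis was possible because the 1 isotype library shares at most 1 replicate number with the ICI libraries, whose numbers only follow their order. The 28 isotype cells of cluster 4 and 44 of cluster 12 limit every estimate there.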
